A study of Mus musculus with 4 samples.

Results

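Among the 32285 genes counted in single cells of the mouse ovary, 9 genes better known from the brain were followed: Nlgn1, Nkain3, Dpp6, Grin2b, Tmeff2, Adgrl3, Pcdh9, Cntn4 and Ntng1. They encode adhesion molecules and channel or receptor subunits of neurons, and were listed as genes of the ovarian stroma. The members were chosen by name with earlier results of these data known, so their levels by cell class and by condition are given here as a description and support nothing by themselves. RNA molecules were counted by their unique molecular identifiers (UMIs), and levels are given as CPM, the UMIs of a gene per 1000000 UMIs of all cells of 1 class from 1 library. Of the 9 genes, 8 had a mean of at least 20 CPM in stromal-like cells and so were found in the stroma, though not only there. Adgrl3, Tmeff2 and Ntng1 had their highest means in other classes. The name of the set did not hold for Cntn4, which was at 3.98 CPM in stromal-like cells and at 147 in granulosa-like cells.

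Whole ovaries were taken from female mice aged 8 weeks, and their dissociated cells were run on the 10x Genomics 3′ platform. Fosl2F/F mice carry LoxP sites around coding sequence of Fosl2, which encodes a subunit of the transcription factor AP-1. Fosl2cKO mice are littermates with the same floxed alleles and Cyp19a1-Cre (Cyp19a1-Cre; Fosl2F/F). Cyp19a1, or aromatase, is made by granulosa cells (GCs), so the deletion was meant for GCs, while both groups carry the floxed alleles in every cell. There were 2 libraries for each group, and p-values between conditions set a difference against the spread between these libraries. Fosl2 itself was at 161 and 167 CPM in GC-like cells of the Fosl2F/F libraries and at 167 and 115 in those labelled Fosl2cKO, with a log2 difference of -0.25 (adjusted p = 0.9996, edgeR). Whether the counted 3′ ends lie inside the floxed part was not determined, so this level may not report the deletion. The paper reported depletion of Fosl2 protein in GCs of Fosl2cKO mice by immunoblotting, which these RNA counts do not address. Since the RNA level did not separate the groups, the libraries of the second group are called libraries labelled Fosl2cKO.

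Neuroligin 1, the product of Nlgn1, sits in the postsynaptic membrane and binds neurexins on the axon. Latrophilin 3 (Adgrl3) is an adhesion G protein-coupled receptor that binds FLRT proteins and teneurins. Netrin-G1 (Ntng1) is anchored to the axon surface and binds NGL-1, the product of Lrrc4c. Protocadherin 9 (Pcdh9) is a cadherin of the delta group, and contactin 4 (Cntn4) is an immunoglobulin protein anchored in the outer leaflet of the membrane. Dpp6 is an inactive relative of dipeptidyl peptidases that binds potassium channels of the Kv4 family, Grin2b is the GluN2B subunit of the NMDA glutamate receptor, Nkain3 interacts with the beta subunit of the sodium pump, and Tmeff2, or tomoregulin, is a membrane protein with follistatin-like domains. Ovarian stroma, by contrast, is made mostly of fibroblast-like cells that surround the follicles and lay down matrix.

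After filtering, 41538 cells were kept, 6760 to 19575 a library, and formed 25 clusters. Cells were clustered without the 9 genes and were named from marker genes. There were 6432 stromal-like cells, of which Fosl2F/F replicates 1 and 2 gave 909 and 3051 and the replicates labelled Fosl2cKO 1144 and 1328. They made up cluster 0, with Mgp, Cxcl14, Lum and Frem1, and also Dpp6 and Nkain3, among its 10 leading genes, and the small cluster 22, with Gsn, Clec3b and C3. The 4697 theca-stromal-like cells, led by Tmem100, Asb4, Enpep and Hhip, and the 15804 GC-like cells served for comparison. Cluster 12, led by the contractile genes Myh11, Tagln and Acta2, scored highest for pericytes or smooth muscle by too small a margin over theca-stromal cells and stayed unnamed. The second Fosl2F/F library stood apart in depth, with a median of 3655 UMIs per cell against 11177 to 12465 in the other libraries. In stromal-like cells the medians were 4618, 2057, 7403 and 5954, in the order Fosl2F/F replicates 1 and 2, then Fosl2cKO replicates 1 and 2, which is the order of all lists of 4 values below. Fosl2F/F replicate 1 stood apart in UMIs of the GC markers Amh, Inha, Fshr and Cyp19a1. Of its stromal-like cells 15.1% held no such UMI, against 47.4% to 63.9% in the other libraries. These shares were not thinned, and the highest was in the shallowest library, Fosl2F/F replicate 2. Droplets with markers of another class are called mixed below, but mixing was not told apart from free RNA. Pairs of libraries shared 15 to 81 barcodes, or 0.173% to 0.763% of the smaller library.

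Markers of neurons and glia were low in the stromal-like cells. Of 12 neuron markers, 1 had a mean of at least 20 CPM there, namely Syt1 at 39.3. The defining genes Snap25, Stmn2, Dbh and Nefl had 2, 5, 2 and 4 UMIs in all. The summed level of the list was 35.9, 48.1, 69.5 and 30.9 CPM. None of the 8 markers of Schwann cells or glia reached 20 CPM, and their sum was 14.6 to 20.8.

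All 9 genes are long. In GENCODE M21 on GRCm38 they span Nlgn1 chr3:25426215-26332460, Nkain3 chr4:20118874-20778866, Dpp6 chr5:26817203-27727505, Grin2b chr6:135713233-136173511, Tmeff2 chr1:50900647-51187270, Adgrl3 chr5:81020138-81825133, Pcdh9 chr14:93013410-93890679, Cntn4 chr6:105677660-106699310 and Ntng1 chr3:109780040-110144011. Dpp6, Tmeff2, Adgrl3 and Cntn4 lie on the plus strand and the others on the minus strand. The spans run from 287 kb (Tmeff2) to 1022 kb (Cntn4), each longer than at least 97.6% of the annotated genes, and annotated exons cover 0.773% (Pcdh9) to 5.40% (Grin2b) of them. Genes over 300 kb are 1.85% of the annotated genes and held 7.04%, 8.77%, 7.57% and 9.65% of the UMIs of stromal-like cells, against 5.28% to 6.26% in GC-like cells. Whether intronic reads were counted is not stated, and the part of introns in these levels was not tested.

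Since the study concerns an AP-1 subunit, the RefSeq promoter windows of the members (250 bases before to 50 after a transcription start, GRCm38.p6) were searched for TGANTCA. This is a loose form of the AP-1 heptamer with any base (N) in the middle, and it reads the same on both strands. Windows were found for 7 of the 9 members, 14 in all. The heptamer stood in 1 of them, a window of Cntn4, 122 bases before the start, and in 7.81% of all 32851 windows. The match was TGATTCA, with T in the middle. The start of this window lies inside the span of Cntn4 given above and not at its beginning, and another window of Cntn4 had no match. The window with the match is shown beside a window of Dpp6, the first along the chromosome, which has none. The sequences are given 5′ to 3′ on the plus strand, with capitals for the heptamer.
Cntn4 chr6:106118692-106118991: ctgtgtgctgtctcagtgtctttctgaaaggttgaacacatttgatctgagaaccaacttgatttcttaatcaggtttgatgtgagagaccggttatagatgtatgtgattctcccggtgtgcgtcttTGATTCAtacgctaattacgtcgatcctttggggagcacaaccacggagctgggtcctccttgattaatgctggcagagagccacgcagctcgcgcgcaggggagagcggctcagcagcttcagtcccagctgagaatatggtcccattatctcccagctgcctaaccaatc
Dpp6 chr5:26817107-26817406: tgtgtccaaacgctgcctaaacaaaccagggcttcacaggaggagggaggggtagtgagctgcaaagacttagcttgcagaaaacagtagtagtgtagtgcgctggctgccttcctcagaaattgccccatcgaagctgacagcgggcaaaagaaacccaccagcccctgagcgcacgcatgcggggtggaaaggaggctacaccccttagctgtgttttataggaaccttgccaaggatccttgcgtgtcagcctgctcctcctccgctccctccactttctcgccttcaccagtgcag
A match describes the letters of the window and not a bound site.

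**Figure D1:**
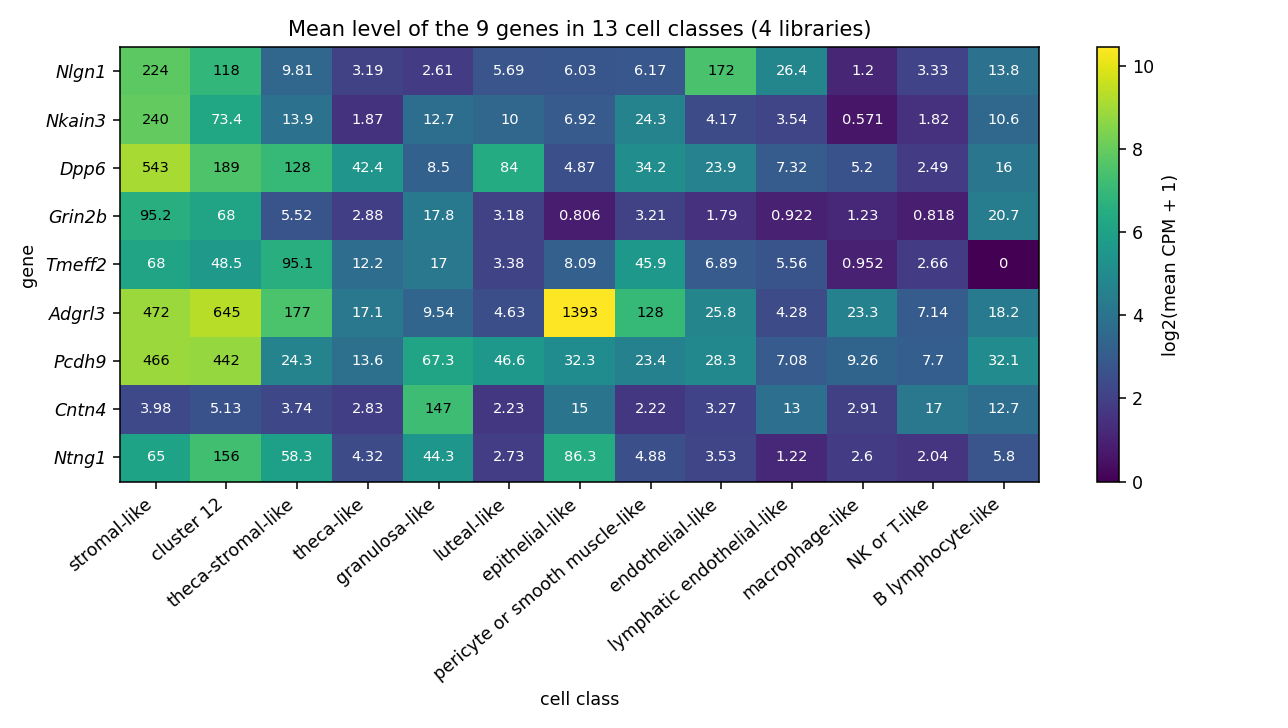
Mean level of each gene (rows, CPM, printed in the cells and coloured on a log2 scale) in the 13 classes with at least 20 cells in every library (columns), over 4 libraries. The stromal-like column is filled for every gene but Cntn4, whose highest level is in granulosa-like cells at 147, and Adgrl3 peaks in epithelial-like cells at 1393. In B lymphocyte-like cells the means rest on 0 (Tmeff2) to 6 (Pcdh9) UMIs a gene.

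Of the adhesion molecules, Nlgn1 had its highest mean in stromal-like cells, at 186, 243, 266 and 202 CPM. It was also found in endothelial-like cells, at 119, 135, 232 and 201, which overlaps the stromal range, and in cluster 12 at 94.8 to 179. Theca-stromal-like cells, next to the stroma in the tissue, had only 5.96 to 13.8 and GC-like cells 1.48 to 3.76. After each cell was thinned to 2000 UMIs, 24.8% ± 3.96 (SD, n = 4) of stromal-like cells held a Nlgn1 UMI, against 26.8% to 46.3% before thinning. Thinning left out 5.59% to 47.9% of the stromal-like cells of a library as too shallow, most of them in Fosl2F/F replicate 2. NK or T-like cells, taken as the level of free RNA, gave 0.334% ± 0.387 (1357 to 3434 UMIs at the median), so the stromal share was not background.

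Of the genes of the neurexin family, whose products bind neuroligin 1, Nrxn2 and Nrxn3 were at means of 1.60 and 6.73 CPM in stromal-like cells. Of the other neuroligins, Nlgn2 was at 23.4 to 46.2 and Nlgn3 at 0.724 to 3.16 in stromal-like cells.

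Adgrl3 had its highest level outside the stroma. Epithelial-like cells, which cover the ovary, held 1019, 1707, 1548 and 1296 CPM, above every other class in each library. Cluster 12 followed at 574 to 712 and stromal-like cells at 472, 443, 333 and 639, and these ranges overlapped. Theca-stromal-like cells came next at 149 to 206 and pericyte or smooth muscle-like cells at 84.8 to 152, again overlapping. The thinned share was 45.0% ± 8.45 in stromal-like and 82.4% ± 10.0 in epithelial-like cells, beside 4.82% ± 2.22 in macrophage-like and 1.94% ± 2.58 in NK or T-like cells. Its ligands were present in stromal-like and theca-stromal-like cells: Flrt2 was at 72.8 to 122 in the former and 43.7 to 71.9 in the latter, and Tenm3 at 115 to 196 and 52.7 to 111. Tenm4, a teneurin shared with GC-like cells (mean 1163), was at 370 to 625 in stromal-like cells. The paralog Adgrl2 was at 280, 302, 213 and 565 in stromal-like cells.

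Ntng1 was spread over more classes. Cluster 12 had 119 to 194 CPM, epithelial-like cells 55.6 to 106, stromal-like cells 71.9, 84.1, 48.3 and 55.6, and theca-stromal-like cells 37.6 to 68.9. The ranges of the last 3 overlapped. GC-like cells held 57.1% of all Ntng1 UMIs and were at 51.4, 17.7, 15.8 and 92.2, from below to above the stromal range. The ligand of netrin-G1, Lrrc4c, was found in the stroma itself, at 32.8, 35.6, 54.0 and 30.1 in stromal-like cells against 1.11 to 2.93 in theca-stromal-like cells. Lrrc4, a related postsynaptic protein, did not separate these classes, at 26.2 to 29.6 and 22.5 to 28.1.

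Pcdh9 was at 425, 536, 384 and 521 CPM in stromal-like cells and at 431, 464, 440 and 434 in cluster 12, so these classes overlapped. GC-like cells followed at 48.3 to 81.8, above the theca-stromal-like cells at 22.1 to 26.7 in each library. After thinning, 38.1% ± 3.44 of stromal-like cells held a Pcdh9 UMI, against 8.52% ± 0.825 of GC-like and 1.89% ± 2.59 of NK or T-like cells. Of the other delta-protocadherins, Pcdh7 was at 332, 484, 504 and 719 in stromal-like cells and was the only one of the 8 listed with a mean of at least 20 there.

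Dpp6 had the widest range in CPM between libraries of the 9 genes in the stroma, with 258, 570, 803 and 541 CPM. In every library this was above cluster 12 (55.4 to 334), theca-stromal-like cells (88.9, 114, 219 and 89.3) and theca-like cells (26.9 to 56.0). The Kv4 channel that Dpp6 can bind, Kcnd2, was at 132, 317, 399 and 281 in stromal-like cells and, like Dpp6, was lowest in Fosl2F/F replicate 1 and highest in Fosl2cKO replicate 1. In theca-stromal-like cells Kcnd2 had 20.2 to 52.7, while the related Kcnd3 was at 112 to 210 there and at 41.8 to 63.3 in stromal-like cells. Kcnip3, a calcium-binding subunit of these channels, was at 24.1 to 56.9 in stromal-like and at most 57.2 in theca-stromal-like cells. Kcnip1 had a mean of 20.1 in theca-stromal-like and 2.95 in stromal-like cells, and Dpp10, the paralog of Dpp6, was at 0.210 to 0.943 in stromal-like cells.

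Nkain3 was found mainly in the stroma. Stromal-like cells had 175, 287, 265 and 235 CPM, cluster 12 had 42.7 to 92.9, and no other class with at least 20 cells a library had a mean above 24.3. After thinning, 28.9% ± 4.71 of stromal-like cells and 0.0893% ± 0.179 of NK or T-like cells held a Nkain3 UMI. Its relatives Nkain1, Nkain2 and Nkain4 had means of 2.78, 4.32 and 3.13 in stromal-like cells. Of the sodium pump's beta subunits, Atp1b1 was at 32.1 to 61.4 in stromal-like cells and 2.49 to 6.75 in theca-stromal-like cells, and Atp1b3 at 89.0 to 120.1 and 107 to 187.

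Grin2b was at 145, 86.9, 40.4 and 109 CPM in stromal-like cells, and at 42.4 to 102 in cluster 12. The libraries kept the same order in cluster 12, highest in Fosl2F/F replicate 1 and lowest in Fosl2cKO replicate 1. GC-like cells had 12.4 to 28.7 and held 50.2% of all Grin2b UMIs, and theca-stromal-like cells had 3.04 to 8.11. Grin1, the subunit that every NMDA receptor needs, had 6 UMIs in all stromal-like cells (0.103 to 0.269 CPM), and Grin2a and Grin2c had 9 and 6. Other postsynaptic genes were present in stromal-like cells: the AMPA receptor subunit Gria3 at 94.97 to 134, the scaffold genes Dlg1 at 138 to 199, Dlg4 at 27.1 to 33.4 and Homer1 at 129 to 317.

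Tmeff2 was highest in theca-stromal-like cells, at 97.3, 71.5, 70.2 and 141 CPM, and stromal-like cells followed at 94.6, 51.3, 34.9 and 91.4. Theca-stromal-like cells were above stromal-like cells in each library, though the ranges overlapped. Cluster 12 had 41.0 to 63.7 and pericyte or smooth muscle-like cells 34.2 to 65.7. In theca-stromal-like and in stromal-like cells Fosl2F/F replicate 1 and Fosl2cKO replicate 2 were the highest libraries.

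Cntn4 was found in GCs rather than in stroma. GC-like cells held 96.7% of its 28791 UMIs, at 64.7, 238, 176 and 108 CPM. Stromal-like cells were at 2.58, 6.20, 6.31 and 0.827, and a UMI was found in 0.629% ± 0.377 of them after thinning, no more than in macrophage-like cells at 0.882% ± 0.268. This is a background level. In GC-like cells the thinned share was 18.04% ± 8.23.

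**Figure D2:**
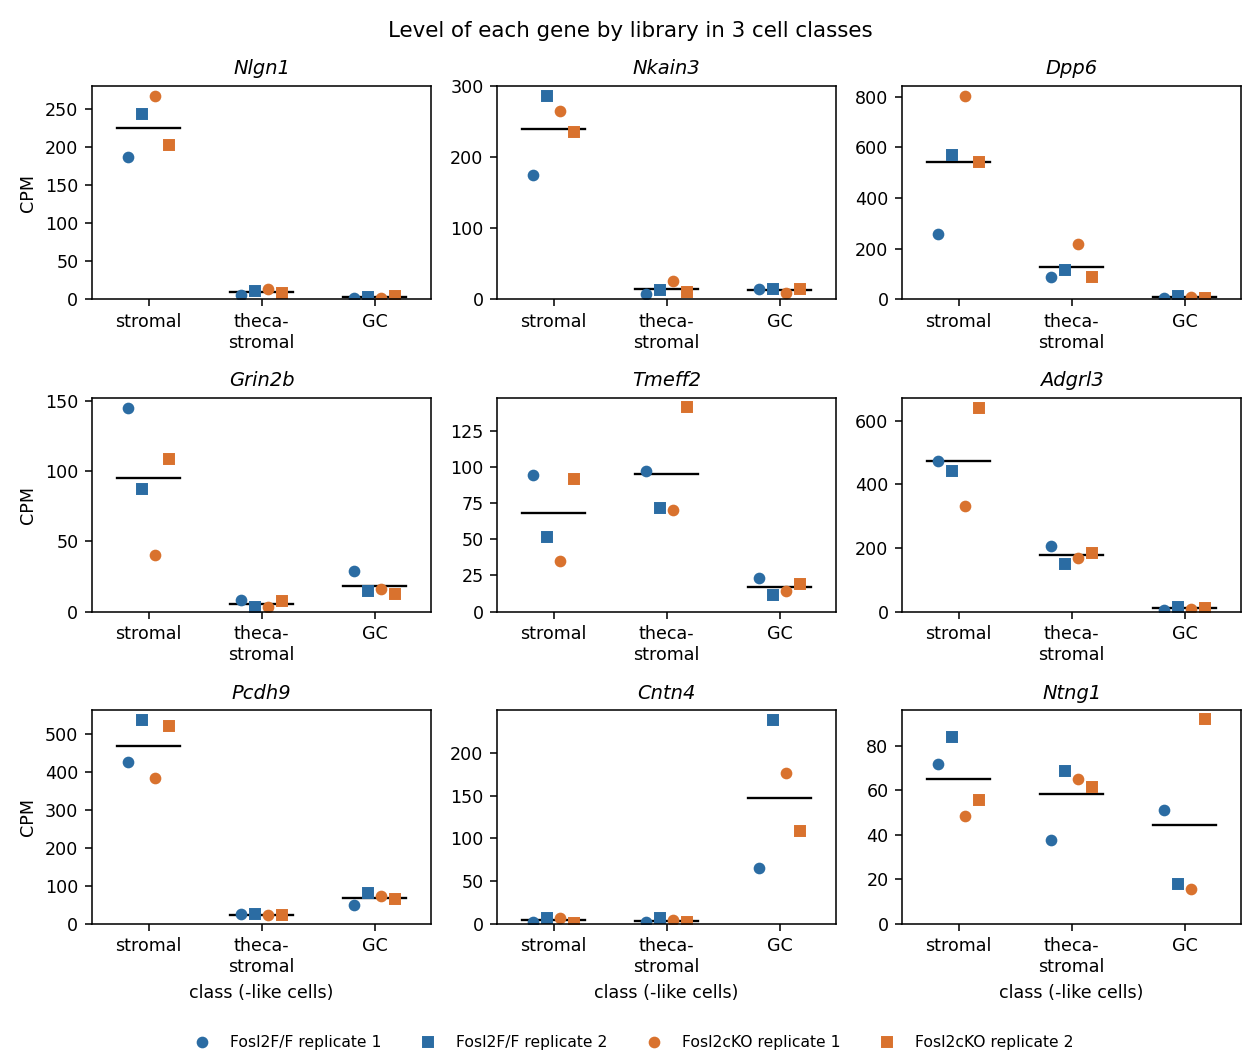
Level of each gene (CPM, linear axes from 0) in stromal-like, theca-stromal-like and GC-like cells, with 1 point per library and a bar for the mean of the 4 libraries. Nlgn1, Nkain3, Dpp6, Grin2b, Adgrl3 and Pcdh9 stand above both other classes in every library, Tmeff2 is highest in theca-stromal-like cells and Cntn4 in GC-like cells.

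Within the stroma the genes did not share 1 pattern. At a finer clustering the stromal-like cells fell into a cluster with Lum, Ogn and Tcf21 among its leading genes (616, 1640, 591 and 698 cells), a cluster with Enpp2, Ptn and Fzd1 (286, 1234, 435 and 601 cells) and the small cluster with Gsn, Clec3b and C3 (13, 68, 95 and 35 cells). Nlgn1 and Pcdh9 were themselves among the leading genes of the first, and Dpp6 of the first and second. These clusters were made from the same cells, so their levels are given without a test.

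Tmeff2 was higher in the Lum and Ogn cluster, at 178, 92.4, 52.5 and 195 CPM, against 9.76, 6.45, 9.54 and 11.9 in the Enpp2 and Ptn cluster. Ntng1 was at 132, 129, 76.5 and 113 against 12.9, 24.6, 26.2 and 17.96. Grin2b was at 241, 131, 62.1 and 216 against 40.2, 46.0, 25.4 and 32.2. In each of these genes every library of the first cluster was above every library of the second. The same held for Pcdh9, at 536 to 821 against 137 to 279, and for Nlgn1, at 239 to 298 against 106 to 202, while Adgrl3 overlapped slightly, at 473 to 885 against 217 to 477. Dpp6 and Nkain3 did not follow: Dpp6 was at 285, 502, 709 and 525 in the first and 237, 702, 1072 and 569 in the second cluster, and Nkain3 at 176 to 250 and 173 to 354. In the Gsn and Clec3b cluster, Nlgn1 (273 to 772) and Pcdh9 (252 to 851) were high and Dpp6 lower than in the other clusters (0, 74.9, 37.4 and 23.5), but Fosl2F/F replicate 1 had only 13 cells there. Tmeff2 was at 10.5 and 34.6 there in Fosl2F/F replicates 1 and 2. In Fosl2cKO replicate 1 Tmeff2 was at 71.3 there, above its 52.5 in the Lum and Ogn cluster.

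**Figure D3:**
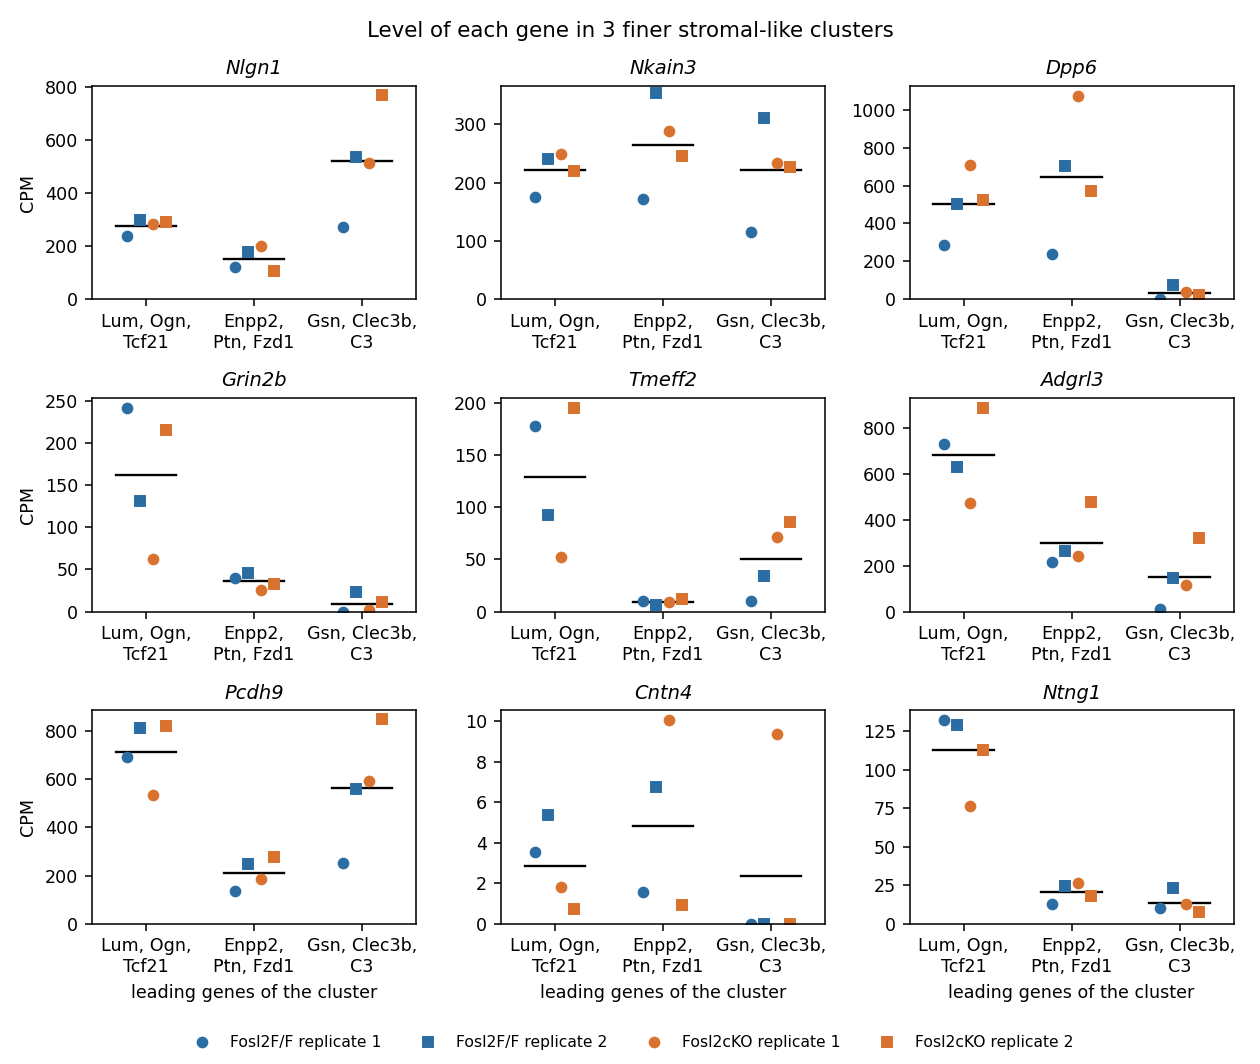
Level of each gene (CPM, linear axes from 0) in the 3 finer stromal-like clusters, named by leading genes, with 1 point per library and a bar for the mean. Tmeff2, Ntng1, Grin2b and Pcdh9 are lower in the Enpp2 and Ptn cluster than in the Lum and Ogn cluster in every library, Dpp6 and Nkain3 are not, and Cntn4 stays under 11 CPM.

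Single stromal-like cells often held UMIs of more than 1 of the genes, on average 1.95 to 2.17 of them in a library after thinning. After thinning to 2000 UMIs, 84.4%, 86.8%, 89.2% and 88.4% of the stromal-like cells held a UMI of at least 1 of the genes, and 35.0%, 33.1%, 30.3% and 39.1% of at least 3. Whether they shared cells more often than the shares of the single genes give was not tested. In theca-stromal-like cells the share with at least 3 was 2.32% to 3.85%, in GC-like cells 0.374% to 0.806% and in NK or T-like cells 0% to 2.86%.

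Among GCs, Cntn4 peaked in another cluster than Pcdh9 and Ntng1. Cntn4 was highest in cluster 3, led by Cdh12, Itga6 and Pcsk6, at 435, 579, 562 and 408 CPM, and Cntn4 was among its 10 leading genes. Clusters 7 and 15, led by Amh, which encodes the anti-Müllerian hormone, had 61.4, 356, 259 and 115, and 139, 339, 247 and 150. Cluster 4, with Inhba and Cyp19a1 among its leading genes, had 9.14 to 25.4. Pcdh9 had its GC peak elsewhere, in cluster 5, led by Kcnq5, Foxp2 and Ghr, at 110, 523, 305 and 203. Ntng1 was high in the same cluster in Fosl2F/F replicate 1 and Fosl2cKO replicate 2, at 186 and 195, and lower in the other libraries, at 48.5 and 54.5. The same libraries were the higher of each group for Ntng1 in clusters 7, 15 and 21. Grin2b was at 67.6, 47.3, 57.0 and 29.2 in cluster 4.

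**Figure D4:**
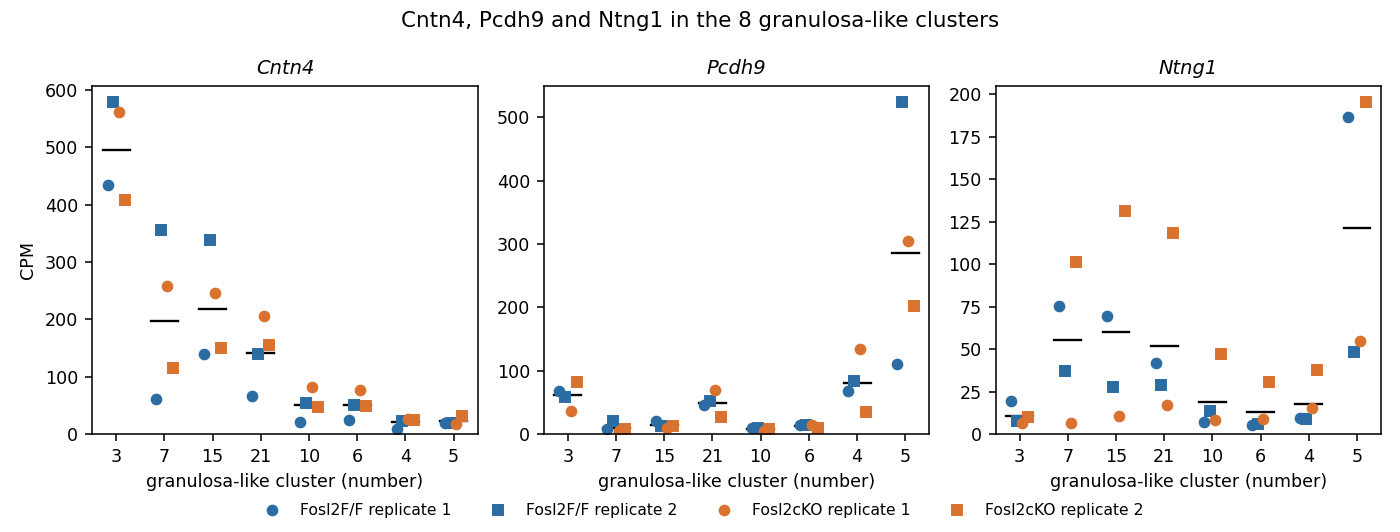
Levels of Cntn4, Pcdh9 and Ntng1 (CPM, linear axes from 0) in the 8 GC-like clusters, by cluster number, with 1 point per library and a bar for the mean. Cntn4 is highest in cluster 3 and Pcdh9 and Ntng1 in cluster 5, and for Ntng1 in that cluster 1 library of each group lies at 186 or 195 and the other at 48.5 or 54.5.

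The genes whose levels over the 13 classes were most like those of a member were, for Dpp6, Mmp2 (r = 0.943) and Scara3 (0.891), and for Tmeff2, Mrc2 (0.967) and Ift27 (0.952). They were Rarres2 (0.950) and Ltbp2 (0.926) for Adgrl3, Galnt15 (0.872) and Clec1a (0.860) for Nlgn1, Tac1 (0.922) and Gabra4 (0.886) for Ntng1, and Amh (0.916) and Zg16 (0.898) for Cntn4. For Nkain3, Grin2b and Pcdh9 the most like genes included members. Nkain3 and Pcdh9 were the nearest to each other (0.904), followed by Gfpt2 for Nkain3 (0.880) and by Grin2b for Pcdh9 (0.893), and Grin2b was nearest to Rad51b (0.893) and then Pcdh9. These are Pearson correlations of log2(mean CPM + 1) over 13 classes among 11093 genes, and the classes share libraries and depth. The classes include B lymphocyte-like cells, of which Fosl2F/F replicate 2 had 29 with 36180 UMIs in all. There 3 UMIs of Grin2b made 82.9 CPM and 4 of Pcdh9 made 111, so the means of this class rest on few UMIs.

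The design asks whether levels differ between the conditions. In stromal-like cells none of the 9 passed (adjusted p under 0.1 and a log2 difference over 0.25 in size, edgeR's quasi-likelihood test), none had an unadjusted p under 0.05, and none passed with DESeq2. Over all 14156 genes tested, 31 passed, or 0.219%, which is the background of this comparison. The 9 genes all passed the filter on low counts, and their median log2 difference, libraries labelled Fosl2cKO minus Fosl2F/F, was -0.10 beside 0.01 over all genes.

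Dpp6 had the largest difference of the 9 in stromal-like cells, 0.70 (SE 0.37, 95% interval -0.08 to 1.48, adjusted p = 0.9998), and leaving out 1 library gave 0.26 (without Fosl2F/F replicate 1) to 1.35 (without Fosl2F/F replicate 2). Its libraries overlapped, since the second Fosl2F/F library (570) was above the second library labelled Fosl2cKO (541). Grin2b followed at -0.66 (SE 0.39, interval -1.48 to 0.17, adjusted p = 0.9998), with 145 and 86.9 against 40.4 and 109 CPM. Without Fosl2cKO replicate 2 the Grin2b difference was -1.50 (adjusted p = 0.0749), past the threshold, while without Fosl2cKO replicate 1 it was -0.15 and without Fosl2F/F replicate 1 -0.21. Ntng1 was at -0.59 (SE 0.29, interval -1.204 to 0.015, adjusted p = 0.9998), and 71.9 and 84.1 against 48.3 and 55.6 did not overlap, as was so for 1 of the 9 members and 28.5% of all genes tested. The other 6 genes lay between -0.31 (Cntn4) and 0.12 (Nlgn1), with intervals that reached from -1.71 to 1.09, both in Cntn4.

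**Figure D5:**
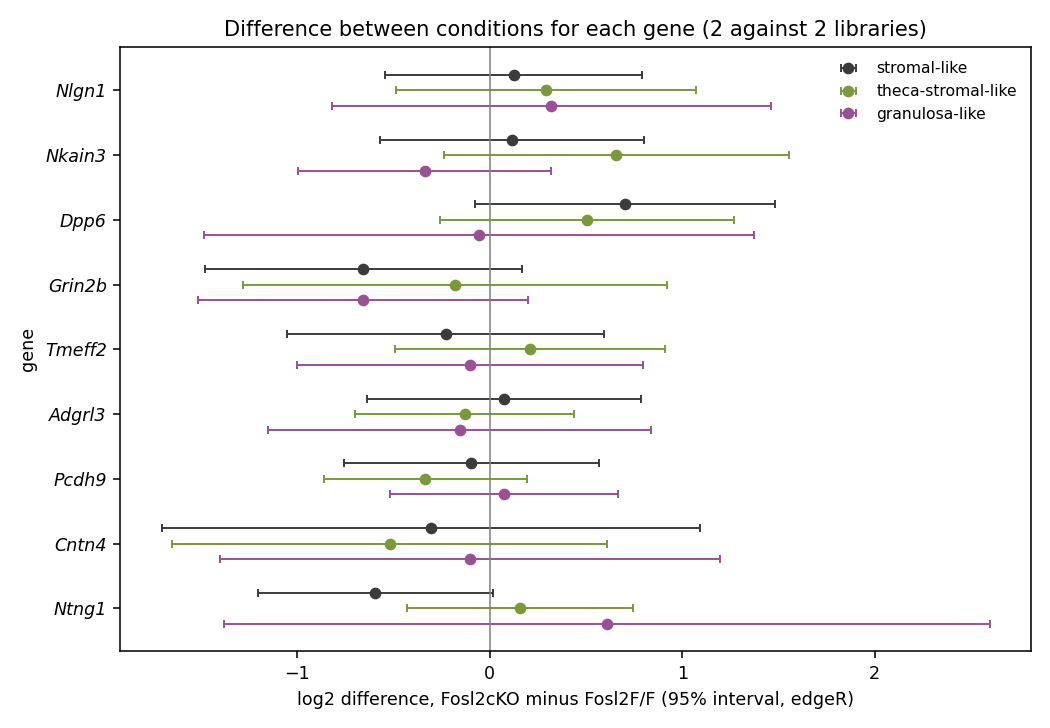
Difference between the conditions for each gene (log2, libraries labelled Fosl2cKO minus Fosl2F/F, with 95% intervals from edgeR, 2 against 2 libraries) in stromal-like, theca-stromal-like and GC-like cells. Every interval shown includes 0, and that of Ntng1 in stromal-like cells ends nearest to it, at 0.015.

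In theca-stromal-like cells none of the 9 passed and none had an unadjusted p under 0.05 or passed with DESeq2, beside 11 of 14189 genes or 0.0775%. Nkain3 had the largest difference there, 0.66 (interval -0.24 to 1.55), which was 1.1998 without Fosl2cKO replicate 2 (adjusted p = 0.0611, past the threshold) and -0.18 without Fosl2cKO replicate 1. Dpp6 was at 0.50 (interval -0.26 to 1.27), Tmeff2 at 0.21 (-0.49 to 0.91) and Adgrl3 at -0.13 (-0.70 to 0.44). Pcdh9, at 25.8 and 26.7 against 22.6 and 22.1 CPM, did not overlap between the groups, at -0.34 (-0.86 to 0.19), as was so for 1 of the 9 members and 32.5% of all genes tested there. In GC-like cells none of the 9 passed, none had an unadjusted p under 0.05 and none passed with DESeq2, beside 1 of 17273 genes or 0.00579%. This class pools all GC-like clusters, while the Cre driver gene Cyp19a1 was among the leading genes of cluster 4 alone. Grin2b had the largest difference there, -0.66 (interval -1.52 to 0.20). Dpp6 was at -0.06 (-1.48 to 1.37), Cntn4 at -0.10 (interval -1.40 to 1.199), Pcdh9 at 0.07 (-0.52 to 0.67) and Ntng1 at 0.61 (-1.38 to 2.60). These intervals leave room for differences of more than 2-fold in Dpp6, Cntn4 and Ntng1 in either direction.

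Whether the condition acted differently in stromal-like and GC-like cells was tested within libraries. No gene of 17394 passed in edgeR, or 0%, with 578 at an unadjusted p under 0.05 and 4 calls by DESeq2, none of them a member. For Dpp6 the difference of the 2 effects was 0.63 (interval -0.04 to 1.29, unadjusted p = 0.061 and adjusted p = 1; 0.26 without Fosl2F/F replicate 2 and 1.02 without Fosl2F/F replicate 1), and for Ntng1 -0.91 (-2.70 to 0.88).

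Partners and paralogs of the 9 genes were tested in the same fits. Of 117 other listed genes (synaptic adhesion molecules and receptors, immunoglobulin and delta-protocadherin adhesion genes, glutamate receptor, Kv4 and sodium pump genes), 81 were tested in stromal-like cells and 0 passed in edgeR, 7 had an unadjusted p under 0.05 (4.29% of all genes tested had) and 2 passed with DESeq2, which called 44 of the 14156 genes. Their median log2 difference was 0.30, beside 0.01 over all genes. The 2 were Unc5c, a netrin receptor, at 7.19, 12.4, 61.5 and 18.8 CPM (2.03, SE 0.46, adjusted p = 0.130 in edgeR), and Opcml, an adhesion molecule of the IgLON family, at 6.64, 8.89, 35.2 and 17.1 (1.75, SE 0.39, adjusted p = 0.112). Both were higher in each library labelled Fosl2cKO than in each Fosl2F/F library, and highest in Fosl2cKO replicate 1. The small cluster 22, in which Opcml was a leading gene, made up 1.43%, 2.20%, 8.30% and 2.56% of the stromal-like cells. In cluster 0 alone Opcml was at 2.06, 3.03, 4.05 and 1.59 CPM, so the groups overlapped, while Unc5c was at 5.63, 8.55, 31.2 and 14.2 and kept the order of the libraries. Unc5c and Opcml lay near the threshold in the whole class, and each passed under 9 of 17 alternatives (adjusted p from 8.14e-10 to 0.9998 for Unc5c and from 3.23e-06 to 0.9998 for Opcml), among them a repeat of the clustering in which ties among features were broken in another order, added after seeing the data (0.0697 and 0.0709). Both passed without Fosl2cKO replicate 2 (8.14e-10 and 3.23e-06). Without Fosl2cKO replicate 1 the differences were 0.89 and 1.08 and neither passed, nor did they without either Fosl2F/F library. Opcml and the other listed genes under 20 CPM that are named here were picked after their values were seen. In theca-stromal-like cells 0 of 72 passed in edgeR and 0 with DESeq2, with 5 at an unadjusted p under 0.05 (4.44% of all genes tested had). In GC-like cells 0 of 101 passed in edgeR, 6 had an unadjusted p under 0.05 (4.78% of all genes tested had), and 1 passed with DESeq2, whose count over all genes is given below. For the difference of the effects in stromal-like and GC-like cells, 0 of 108 passed in edgeR and 0 with DESeq2. There 17 had an unadjusted p under 0.05, beside 3.32% of all genes tested, and the median was 0.32 beside 0.01 over all genes. The listed genes were chosen with earlier results of these data known.

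Values that moved with the libraries stand beside these. The nuclear-retained RNAs Malat1, Neat1 and Kcnq1ot1 summed to 21880, 37467, 31949 and 28541 CPM in stromal-like cells, lowest in Fosl2F/F replicate 1, which had the lowest Dpp6, Nkain3 and Kcnd2 but the highest Grin2b and Tmeff2, and to 7944 to 12261 in GC-like cells. Their part in the levels of the 9 genes was not tested. By length, the median log2 difference in stromal-like cells was -0.09 over genes under 30 kb, 0.10 over those of 30 to 100 kb, 0.12 from 100 to 300 kb, 0.11 over the 407 genes of 300 to 1000 kb, in which 7 of the 9 genes fall, and 0.036 over the 44 longer genes.

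In the 10 other classes with at least 20 cells in every library, 50 tests of a member were possible. None passed in edgeR and 10 had an unadjusted p under 0.05, or 20% of these tests, beside 5.64% of all tests in the same classes and 10.9% in luteal-like cells, which held 4 of the 10. The genes passing in these classes were 0.37% in B lymphocyte-like, 0.737% in NK or T-like, 0.23% in endothelial-like, 0.115% in epithelial-like, 0.0156% in luteal-like, 0.28% in macrophage-like and 0.0336% in theca-like cells, and 0% in cluster 12, lymphatic endothelial-like and pericyte or smooth muscle-like cells. The largest differences were in luteal-like cells, where Dpp6 was at 4.56, 27.8, 30.6 and 273 CPM. It was highest in Fosl2cKO replicate 2, in which 31.5% of the thinned cells held a Dpp6 UMI against 0.769% to 5.28% in the other libraries, and in both luteal-like clusters this library was the highest. Cluster 11 was at 0, 33.6, 27.1 and 289 (54, 841, 292 and 237 cells) and cluster 19 at 4.70, 5.96, 78.6 and 139 (133, 404, 40 and 55 cells), so the mix of the clusters differed between libraries. The difference of 3.03 (SE 1.15) had an adjusted p of 0.436. Nlgn1 (2.50), Pcdh9 (1.92) and Ntng1 (1.63) were also higher in luteal-like cells of the libraries labelled Fosl2cKO, with adjusted p of 0.418, 0.374 and 0.411 (edgeR). Nkain3 (-0.06), Adgrl3 (-0.53) and Cntn4 (-0.89) were lower. In this class 5 of the 9 members did not overlap between the groups, as was so for 47.2% of all genes tested there. In endothelial-like cells 3 of 7 members tested had an unadjusted p under 0.05, beside 4.79% of all genes there, and they did not move one way. Dpp6 differed by 2.13 (adjusted p = 0.457), at 6.72 and 10.0 against 71.9 and 6.92 CPM. Its high level was in Fosl2cKO replicate 1 alone, where 3.83% of 183 cells held its 174 UMIs. Nlgn1 differed by 0.76 (119 and 135 against 232 and 201, adjusted p = 0.418) and Pcdh9 by -0.83 (adjusted p = 0.798). Nlgn1, Pcdh9 and Nkain3 (-0.81) did not overlap between the groups, as was so for 28.8% of all genes tested in the class.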

How the data were processed

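The deposited UMI counts (Cell Ranger 7.1.0 per the file headers, while the study's methods name another version) were used as the authors gave them. The methods name CellBender for ambient RNA. Whether the deposited counts are the corrected ones and whether intronic reads were counted are not stated in the sources used here, and 0 other value columns were present. Cells were kept from 500 genes and 1000 UMIs upward where mitochondrial genes held under 10% and hemoglobin genes under 0.1% of UMIs. The cells with the highest Scrublet scores (scanpy 1.11.5) were removed as doublets, at a set 0.8% per 1000 cells. This took 19.4% of the filtered cells of Fosl2F/F replicate 2 and 5.74% to 7.01% in the other libraries. Libraries were integrated and clustered in Seurat 5.3.0 (sctransform 0.4.2, 30 dimensions, resolution 0.8) without the 9 genes, and clusters were named from marker lists. UMIs were summed per class and library and tested with edgeR 4.0.16 (filterByExpr, TMM, quasi-likelihood test, Benjamini-Hochberg) in R 4.3.3, with DESeq2 1.42.0 as an alternative. The tests were tried on simulated data first. Shares of cells were compared after thinning each cell to 2000 UMIs. The members and gene lists were chosen with earlier results of these data known. Named genes were the members, listed genes that passed or had a mean of at least 20 CPM in stromal-like or theca-stromal-like cells, and the 2 genes most like each member. Some listed genes under 20 CPM were also named, picked after their values were seen. Replicate numbers were used to pair the libraries only as an alternative. With 2 libraries a group, p-values set a difference only against the spread between these libraries. A few listed genes are not reported here.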

Additional observations from a re-analysis of the deposited data

How the results depend on the processing

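Each condition rests on 2 libraries, and the number of genes passing depended on them. In stromal-like cells it went from 31 to 9 without droplets holding GC markers (which kept 15.1% of these cells in Fosl2F/F replicate 1 and at least 47.4% elsewhere), 58 without integration, 49 with library totals in place of TMM, 237 without a filter on low counts and 12 at an adjusted p under 0.05 with no minimum fold, and leaving out a library gave 0 to 258 (0 without Fosl2F/F replicate 1, 2 without Fosl2F/F replicate 2, 149 without Fosl2cKO replicate 1 and 258 without Fosl2cKO replicate 2). In theca-stromal-like cells 11 became 0 without mixed droplets, 7 with coarser and 7 with finer clusters, 72 with DESeq2, 256 without the filter, 4 at the stricter threshold and 0 to 230 when a library was left out. In GC-like cells 1 became 172 with DESeq2, 261 without the filter and 0 to 135 when a library was left out. The test of the difference between classes went from 0 to 8 without mixed droplets, 4 with DESeq2, 109 without the filter and 0 to 40 when a library was left out. Where leaving out a library left 1 in a group, that library was assumed to vary like the others. The causes were not tested. A repeat of the clustering with ties among features broken in another order, added after seeing the data, gave 44, 9, 1 and 0 genes in the 4 comparisons and changed no call or direction among the 22 member differences below.

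With the replicate number as a replicate block, 0 genes passed in stromal-like, 55 in theca-stromal-like and 29 in GC-like cells. In the last of these Cntn4 turned from -0.10 to 0.12 and Dpp6 from -0.06 to 0.16. The profiles of the libraries correlated at a minimum r of 0.956, 0.966 and 0.979 in these classes. The measure of pairing by number, which is not the correlation of these profiles, was r = -0.0844, -0.144 and -0.158. By this measure the numbers gave no sign of pairing, but 2 libraries a group cannot exclude it. With the numbers crossed, chosen after seeing the data, the replicate block gave 153, 204 and 2 genes, and in GC-like cells Cntn4 was at 0.12 and Dpp6 at 0.15.

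Of 370 alternative values over 22 member differences, 333 kept direction and call, 35 changed sign and 2 passed, both without Fosl2cKO replicate 2: Grin2b in stromal-like cells (-1.50, adjusted p = 0.0749) and Nkain3 in theca-stromal-like cells (1.1998, adjusted p = 0.0611). The lowest adjusted p over the 282 values that kept all libraries was 0.168. With more than 2000 UMIs per cell Pcdh9 in stromal-like cells was at 0.018 and Dpp6 in GC-like cells at 0.10. Without mixed droplets Adgrl3 was at -0.012 in stromal-like and 0.10 in theca-stromal-like cells and Tmeff2 at -0.032 in theca-stromal-like cells, and Dpp6 at 0.098 in GC-like cells. Leaving out a library changed the sign in stromal-like cells of Nlgn1 (-0.13 to 0.33), Nkain3 (-0.17 to 0.49), Tmeff2 (-1.05 to 0.31), Adgrl3 (-0.44 to 0.43), Pcdh9 (-0.30 to 0.073) and Cntn4 (-2.44 to 0.52). It did so in theca-stromal-like cells for Nkain3 (-0.18 to 1.1998), Dpp6 (-0.29 to 1.01), Tmeff2 (-0.38 to 0.62), Adgrl3 (-0.42 to 0.19) and Ntng1 (-0.17 to 0.57). It also did so in GC-like cells for Dpp6 (-0.70 to 1.16), Pcdh9 (-0.21 to 0.45), Cntn4 (-0.72 to 1.06) and Ntng1 (-1.21 to 1.65), and for Ntng1 in the difference between classes (-2.10 to 0.33).

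Of 66 alternative levels 64 moved by less than 1 SD over libraries. Without mixed droplets the stromal mean of Tmeff2 was 105 and that of Pcdh9 547 CPM. Thinning to 1000 UMIs lowered the share of stromal-like cells with a UMI to 17.1% for Nlgn1, 17.7% for Nkain3, 25.5% for Dpp6, 32.5% for Adgrl3, 28.9% for Pcdh9 and 6.36% for Ntng1, and that of Tmeff2 in theca-stromal-like cells to 7.76%.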
